A study of Homo sapiens with 8 samples.

Results

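The transcripts of 10 genes that the transcription coactivator YAP is known to switch on were followed through SMARCB1 knockdown in liver cancer cells: CCN1, CCN2, ANKRD1, AMOTL2, LATS2, AJUBA, NUAK2, GADD45B, AXL and NT5E. They were chosen by gene symbol as known YAP targets, with earlier results of these data known, and are 10 of the 20044 genes named on the array. The array carries 15 probes for them, of which 14 lay above background, so that all 10 genes were among the 12411 genes tested. CCN1 and CCN2 are the current symbols for the genes long called CYR61 and CTGF.

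The protein made from SMARCB1 is a shared part of SWI/SNF, a family of chromatin remodellers. Both cell types are established lines: SK-Hep1 came from a hepatic adenocarcinoma and has been described as endothelial in character, and Huh7 came from a hepatocellular carcinoma and makes many liver proteins. In each line 2 arrays came from cells carrying an shRNA against SMARCB1 and 2 from control cells, all labelled as selected in puromycin at 1.25 µg/mL. The SK-Hep1 knockdown arrays are numbered 11 and 12 and their controls (shcon) 1 and 2, while the Huh7 knockdown arrays are numbered 3 and 4 and their controls, whose titles name GFP, 1 and 2. The control construct may therefore differ between the lines, and both Huh7 knockdown titles carry the number 11 as well, so whether 1 or 2 hairpins were used is not known from the labels. Nothing in the labels says that the 2 arrays of a group came from separate cultures, and the p-values below rest on differences between the 2 arrays of a group, whose spread may be technical only.

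YAP and its relative TAZ (gene WWTR1) do not bind DNA themselves. They enter the nucleus and join the TEAD family of DNA-binding proteins, which recognise a short motif, often together with AP-1 factors. The Hippo kinases STK3 and STK4 activate LATS1 and LATS2, which phosphorylate YAP and TAZ and hold them in the cytoplasm. In the liver this pathway is known for restraining organ size and hepatocyte growth. Among the genes followed here, CCN1 and CCN2 encode secreted matricellular proteins and ANKRD1 a nuclear and sarcomeric ankyrin-repeat protein, and the 3 are the usual readouts of YAP activity. LATS2 and AMOTL2 act back on YAP as inhibitors, whereas AJUBA, a LIM-domain protein, and NUAK2, a kinase of the AMPK-related family, act in its favour. GADD45B is a stress-response gene, AXL encodes the receptor tyrosine kinase for GAS6, and NT5E encodes CD73, the cell-surface enzyme that makes adenosine from AMP.

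The 250 bases before the annotated start are shown for CCN2 and ANKRD1, as the standard reporters of TEAD binding, and for NUAK2, chosen after its values were seen, as the gene of the 10 with the largest difference between the lines. These 3 genes lie on the minus strand. Their windows are chr6:131951373-131951622, chr10:90921088-90921337 and chr1:205321746-205321995 of GRCh38.p14, and each sequence is RefSeq's, written 5′ to 3′ on the gene's strand. Capitals mark the letters of the TEAD motif GGAATG, or CATTCC where it lies on the other strand.
CCN2: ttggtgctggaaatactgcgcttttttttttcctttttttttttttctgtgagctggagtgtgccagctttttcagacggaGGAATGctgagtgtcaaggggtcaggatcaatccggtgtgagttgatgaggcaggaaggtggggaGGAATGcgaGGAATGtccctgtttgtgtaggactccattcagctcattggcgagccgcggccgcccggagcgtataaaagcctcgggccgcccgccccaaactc
ANKRD1: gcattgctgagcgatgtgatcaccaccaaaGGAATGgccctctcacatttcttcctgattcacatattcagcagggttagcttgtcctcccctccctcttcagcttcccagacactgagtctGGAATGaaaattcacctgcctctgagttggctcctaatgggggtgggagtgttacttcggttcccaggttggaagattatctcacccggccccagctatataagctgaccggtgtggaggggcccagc
NUAK2: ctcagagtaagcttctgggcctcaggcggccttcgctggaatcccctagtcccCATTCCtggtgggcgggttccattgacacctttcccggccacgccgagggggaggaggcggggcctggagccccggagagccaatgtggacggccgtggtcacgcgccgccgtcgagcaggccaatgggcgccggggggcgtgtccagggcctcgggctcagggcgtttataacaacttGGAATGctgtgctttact
CCN2 holds 3 copies, whose first bases lie at -169, -104 and -95 from the start, and the nearer pair is separated by only a few bases. ANKRD1 holds 2 copies, at -220 and -128, and NUAK2 also 2, at -197 on the other strand and at -18, close beside the start. Over 250 bases before to 50 after the start, the motif occurs at least once in 14.0% of the 35116 promoters in the RefSeq table, at least 2 times in 1.37% and at least 3 times in 0.128%. The table holds 12 promoters of 9 of the genes followed here, and 7 of the 12 have the motif. The genes were chosen as YAP targets, so this share is a description of them and not a result. CCN1 is not among the promoters of the table. The loose AP-1 pattern TGANTCA, with any base in the middle, was found in 1 of the 12, against 7.71% of all promoters. That match, in ANKRD1 at -195, reads TGATTCA and not the usual TGACTCA or TGAGTCA. The loose SRF pattern, CC and GG with any 6 bases between them on either strand, which can overlap the TEAD motif, was found in 10 of the 12 and in 78.2% of all promoters.

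The knockdown was visible in the targeted gene, without overlap between groups in either line. SMARCB1 read 9.30 and 9.67 on the log2 scale in SK-Hep1 knockdown cells, against 10.68 and 10.61 in SK-Hep1 controls, and 9.22 and 9.27 in Huh7 knockdown cells, against 10.84 and 10.94 in Huh7 controls. The differences, knockdown minus control, were -1.16 ± 0.107 (SE) in SK-Hep1 and -1.65 ± 0.107 in Huh7, with n = 2 arrays per group (limma with Benjamini-Hochberg adjustment, adjusted p = 0.000113 and 3.48e-06). Each SE of a difference within a line rests on 1 estimate of the spread per gene, shared by the 4 groups. It is therefore the same in both lines and does not show that arrays differed more in SK-Hep1. The SD over all genes tested of the difference between the arrays of a group was 0.173 in SK-Hep1 knockdown cells and 0.135 in their controls. It was 0.115 in Huh7 knockdown cells and 0.103 in their controls. The deposited values hold almost no difference between the lines: the mean over the 4 SK-Hep1 arrays and that over the 4 Huh7 arrays differed by at most 0.139 among the genes followed here, so levels are compared only within a line. In such bulk RNA, fewer cells of a type and less RNA per cell cannot be told apart.

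The markers can be read only over both lines together, since the deposited values hold almost no difference between them, and they do not show which line expresses a gene. Of 23 hepatocyte markers on the array 21 were above background, ALB at 11.44 and APOA1 at 9.58 over the 8 arrays, whereas 5 of 15 endothelial markers were, ENG the brightest, PECAM1 only just above the limit at 7.11, and CDH5 and VWF not above background. PTPRC, which marks all leukocytes, was not above background either, and 6 of 11 immune cell markers and 9 of 12 fibroblast and stellate cell markers were. The sums below take in every marker on the array, also those not above background, whereas the counts and medians cover only markers above it. Of the 15 endothelial markers summed, 10 were not above background. Summed over the hepatocyte list, the log2 level was 14.66 to 14.67 in SK-Hep1 knockdown cells against 14.48 to 14.49 in their controls. In Huh7 it was 14.65 to 14.70 in knockdown cells against 14.82 in controls. That sum is led by SERPINA1, ALB and AFP. Of the 21 markers above background, 4 rose and 1 fell in SK-Hep1 (median -0.0002), and 2 rose and 10 fell in Huh7 (median -0.13). With any 1 Huh7 array left out, fewer of the 21 passed as lower in Huh7, and the median there ran from -0.18 to -0.094. The immune list, in which CD68 and CD14 were brightest, summed to 12.20 to 12.24 in SK-Hep1 knockdown cells against 11.72 to 11.77 in their controls, and to 11.80 to 11.88 in Huh7 knockdown cells against 12.10 in their controls, with 2 of 6 higher and 0 lower in SK-Hep1 (median 0.086) and 1 higher and 2 lower in Huh7 (median -0.14). The endothelial list summed to 10.95 to 10.96 in SK-Hep1 knockdown cells against 10.85 to 10.86 in their controls, and to 10.87 to 10.89 in Huh7 knockdown cells against 10.89 to 10.91 in their controls, with 2 of 5 higher and 0 lower in SK-Hep1 (median 0.21) and 0 higher and 1 lower in Huh7, where the median was 0.074 although the sum was lower. The fibroblast and stellate list summed to 12.005 to 12.354 in SK-Hep1 knockdown cells against 12.35 to 12.40 in their controls, and to 12.24 to 12.31 in Huh7 knockdown cells against 12.33 to 12.40 in their controls. Of its 9 markers, 1 rose and 1 fell in SK-Hep1 (median -0.13) and 1 rose and 2 fell in Huh7, where the median was 0.062 although the sum was lower. Beside these counts, 8.31% of all genes tested rose and 8.54% fell in SK-Hep1, and 19.4% rose and 19.5% fell in Huh7. The part of the marker shifts in the results below was not tested.

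SMARCB1 knockdown was followed by lower levels of some YAP target genes in SK-Hep1, and by higher levels of some and lower NT5E in Huh7. In SK-Hep1, 4 of the 10 genes fell and 0 rose: GADD45B, NUAK2, CCN1 and AJUBA. In Huh7, 3 of the 10 rose, NUAK2, AJUBA and CCN1, and 1 fell, NT5E. Of all 12411 genes tested, 8.54% fell and 8.31% rose in SK-Hep1 (16.8% in either direction), and 19.4% rose and 19.5% fell in Huh7 (38.9% in either direction). The 4 of 10 called in Huh7 were near the 38.9% called among all genes tested there. These shares stand beside the counts as a description, since the 10 genes were not chosen blind to the data. The same 3 genes were called in both lines, lower in SK-Hep1 and higher in Huh7, a pattern found in 2.16% of all genes tested. None of the 10 had any other pattern of calls in both lines, which 2.12% (higher in SK-Hep1 and lower in Huh7), 2.27% (higher in both) and 2.30% (lower in both) of all genes tested had. Without SK-Hep1 control replicate 1, 2 of the 10 fell in SK-Hep1 and 1 had opposite calls, and with each line fitted alone CCN1 was no longer called in SK-Hep1; with any 1 SK-Hep1 array left out, 2 of the 10 fell in Huh7. The median difference over the 10 genes was -0.17 in SK-Hep1 and 0.098 in Huh7, beside -0.0095 and 0.0006 over all genes tested.

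**Figure D1:**
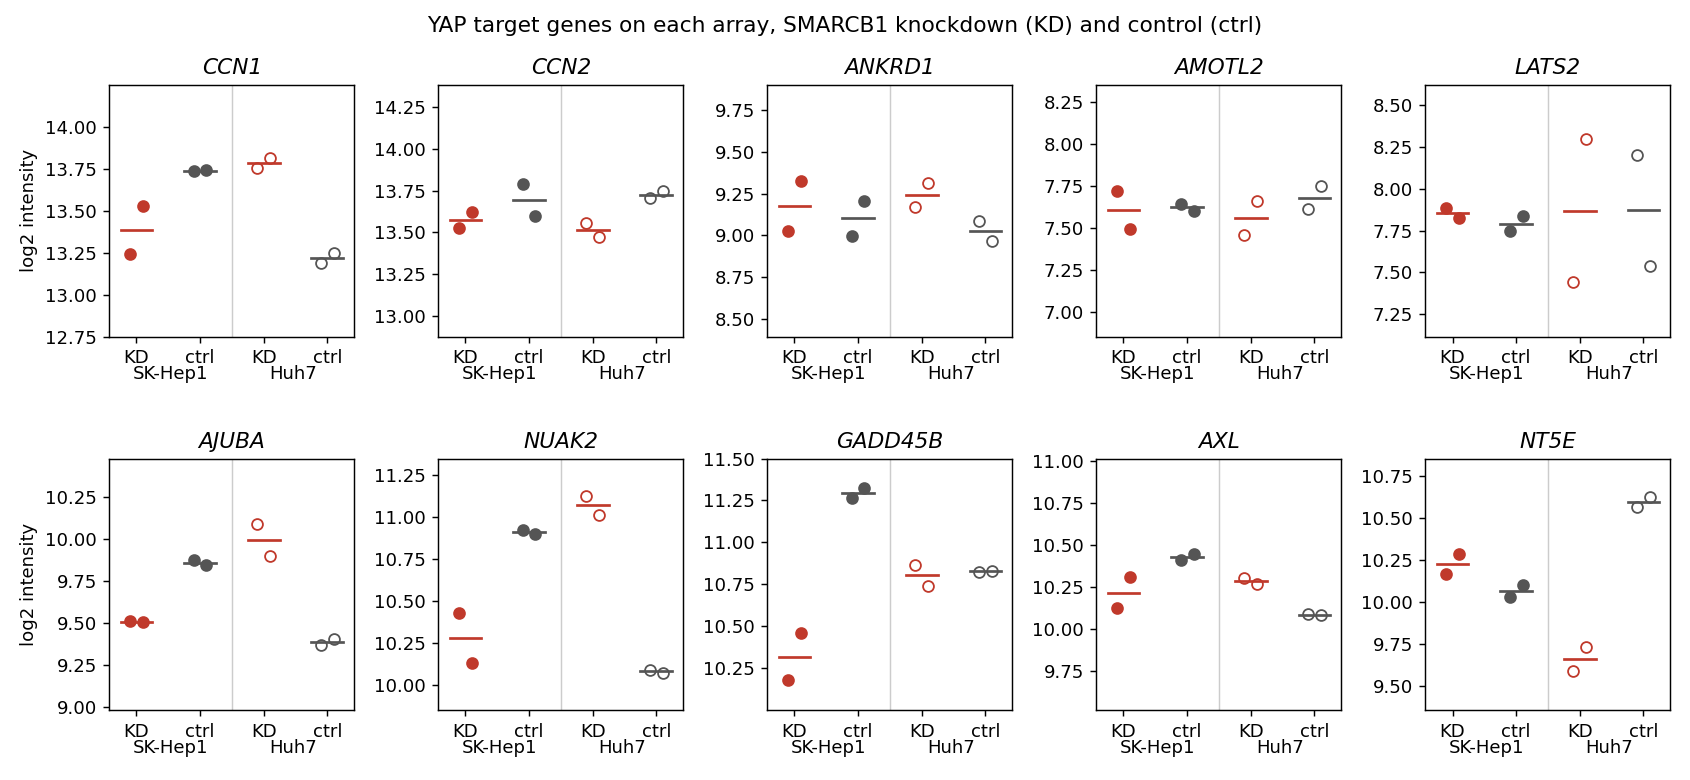
Log2 intensity of the 10 YAP target genes on each of the 8 arrays, from the brightest probe of each gene. Red points are SMARCB1 knockdown (KD) and grey points control arrays, filled for SK-Hep1 and open for Huh7, and short lines are means of 2 arrays. For NUAK2, CCN1, AJUBA and AXL the knockdown arrays lie below the controls in SK-Hep1 and above them in Huh7. For LATS2 the 2 arrays of each Huh7 group lie far apart.

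Of the secreted reporters, CCN1 was called in both lines and CCN2 in neither. CCN1 read 13.24 and 13.53 in SK-Hep1 knockdown cells, against 13.73 and 13.74 in SK-Hep1 controls. In Huh7 it read 13.76 and 13.81 in knockdown cells, against 13.19 and 13.25 in controls. Neither pair of groups overlapped, and replicate 11 of the SK-Hep1 knockdown stood lower than replicate 12. The difference was -0.35 ± 0.0915 in SK-Hep1 (1.28-fold lower, limma adjusted p = 0.0256) and 0.57 ± 0.0915 in Huh7 (1.48-fold higher, adjusted p = 0.000928). Leaving out either control (adjusted p = 0.11 and 0.1002) or knockdown replicate 11 (0.0831) ended the SK-Hep1 call; in the last case the difference was -0.21. Fitting each line alone ended it too (adjusted p = 0.0723), with the difference unchanged. Its Huh7 call was kept with any 1 Huh7 array left out (adjusted p = 0.00682 to 0.0128).

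CCN2, with 3 TEAD motifs in the sequence shown above, read 13.53 and 13.62 in SK-Hep1 knockdown cells, against 13.79 and 13.60 in controls, so that the groups overlapped. In Huh7 its values were 13.55 and 13.47 in knockdown cells, against 13.70 and 13.75 in controls, which did not overlap. The difference was -0.12 in SK-Hep1 (95% interval -0.30 to 0.062, limma adjusted p = 0.341) and -0.21 in Huh7 (-0.39 to -0.033, adjusted p = 0.05995), and neither passed the threshold of 0.05. The Huh7 difference did pass when any 1 SK-Hep1 array was left out (adjusted p = 0.0414 to 0.0453), and with either quantile normalization, each line fitted alone, array weights or an intensity trend (0.0172 to 0.0282). Its second probe, ILMN_2115125, read 12.19 and 12.24 in Huh7 knockdown cells, against 12.53 and 12.58 in controls, a difference of -0.34 that passed when probes were tested singly (adjusted p = 0.00337). On that probe the SK-Hep1 difference was 0.082 (adjusted p = 0.449), of the opposite sign to the brighter probe.

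ANKRD1, the third usual reporter, passed in neither line. It read 9.03 and 9.33 in SK-Hep1 knockdown cells, against 9.00 and 9.21 in controls, and 9.17 and 9.31 in Huh7 knockdown cells, against 9.09 and 8.97 in controls. The SK-Hep1 groups overlapped and the Huh7 groups did not. The difference was 0.073 in SK-Hep1 (95% interval -0.17 to 0.32, limma adjusted p = 0.691) and 0.22 in Huh7 (-0.030 to 0.46, adjusted p = 0.147). The Huh7 difference passed with each line fitted alone (adjusted p = 0.0382) and with array weights (0.0483).

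The feedback inhibitors LATS2 and AMOTL2 were not called. AMOTL2 read 7.72 and 7.496 in SK-Hep1 knockdown cells, against 7.65 and 7.60 in controls, and 7.46 and 7.66 in Huh7 knockdown cells, against 7.61 and 7.75 in controls. The groups overlapped in both lines, with differences of -0.014 (95% interval -0.23 to 0.20) and -0.12 (-0.34 to 0.096). LATS2 read 7.89 and 7.82 in SK-Hep1 knockdown cells, against 7.74 and 7.83 in controls. In Huh7 its 2 arrays disagreed within each group, at 7.44 and 8.29 in knockdown cells and 8.20 and 7.54 in controls, so that its interval ran from -0.55 to 0.54, and from -0.48 to 0.61 in SK-Hep1. The probes of AMOTL2 and LATS2 are dim, at 7.62 and 7.85 over the 8 arrays, against a background limit of 7.003.

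Both genes that act in favour of YAP fell in SK-Hep1 and rose in Huh7. NUAK2 read 10.43 and 10.13 in SK-Hep1 knockdown cells, against 10.92 and 10.90 in controls. In Huh7 it read 11.12 and 11.01 in knockdown cells, against 10.09 and 10.07 in controls. Knockdown arrays lay wholly below the controls in SK-Hep1 and wholly above them in Huh7. The difference was -0.63 ± 0.095 in SK-Hep1 (1.55-fold lower, limma adjusted p = 0.00195) and 0.99 ± 0.095 in Huh7 (1.98-fold higher, adjusted p = 4.03e-05). By size it ranked 221 of 12411 genes in SK-Hep1 and 180 in Huh7. Its other probe, ILMN_1789793, gave -0.60 and 1.17. On the brighter probe neither call was lost with any 1 array of that line left out (adjusted p up to 0.0246 in SK-Hep1 and 0.000936 in Huh7).

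AJUBA read 9.51 on both SK-Hep1 knockdown arrays, against 9.87 and 9.85 in controls, and 10.09 and 9.90 in Huh7 knockdown cells, against 9.37 and 9.41 in controls. Here too the groups did not overlap in either line. The difference was -0.35 ± 0.0764 in SK-Hep1 (1.28-fold lower, limma adjusted p = 0.012) and 0.61 ± 0.0764 in Huh7 (1.52-fold higher, adjusted p = 0.000214). The SK-Hep1 call was lost without control replicate 1 (adjusted p = 0.0709), where the difference was -0.34. A second probe, ILMN_1661372, gave -0.27 and 0.50, while the third, ILMN_1811535, lay below background and was not tested.

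GADD45B gave the largest fall of the 10 genes in SK-Hep1 and no call in Huh7. It read 10.18 and 10.46 in SK-Hep1 knockdown cells, against 11.27 and 11.32 in controls, and 10.87 and 10.74 in Huh7 knockdown cells, against 10.82 and 10.83 in controls. The groups were far apart in SK-Hep1, and in Huh7 the 2 controls lay between the 2 knockdown arrays. The difference was -0.98 ± 0.0934 in SK-Hep1 (1.97-fold lower, rank 63 of 12411 by size, limma adjusted p = 0.000143) and -0.023 in Huh7 (95% interval -0.23 to 0.18, adjusted p = 0.867). With any 1 SK-Hep1 array left out the difference was between -1.12 and -0.84 and kept its call.

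NT5E fell in Huh7 and was not called in SK-Hep1. It read 9.58 and 9.73 in Huh7 knockdown cells, against 10.56 and 10.62 in controls, a difference of -0.93 ± 0.0778 (1.91-fold lower, rank 226 by size, limma adjusted p = 1.54e-05). In SK-Hep1 it read 10.17 and 10.28 in knockdown cells, against 10.03 and 10.10 in controls. Those groups did not overlap either, but the difference of 0.16 (95% interval -0.010 to 0.34, adjusted p = 0.177) did not pass. The Huh7 call held with any 1 Huh7 array left out (adjusted p up to 0.000527).

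AXL differed in the same directions as CCN1, at a smaller size and without a call in either line. It read 10.12 and 10.31 in SK-Hep1 knockdown cells, against 10.41 and 10.45 in controls, and 10.30 and 10.27 in Huh7 knockdown cells, against 10.09 and 10.08 in controls. The groups did not overlap in either line, yet neither difference passed: -0.21 ± 0.0758 in SK-Hep1 (limma adjusted p = 0.079) and 0.20 ± 0.0758 in Huh7 (adjusted p = 0.0606). The second probe, ILMN_2364521, gave -0.24 and 0.21 and passed in both lines when probes were tested singly (adjusted p = 0.0422 and 0.0411). On the brighter probe the SK-Hep1 difference passed without knockdown replicate 12 (-0.31, adjusted p = 0.0228) and the Huh7 one without either SK-Hep1 knockdown array (adjusted p = 0.0221), with each line fitted alone (0.0189), with array weights (0.0143) and with a stricter filter on dim probes (0.0499).

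**Figure D2:**
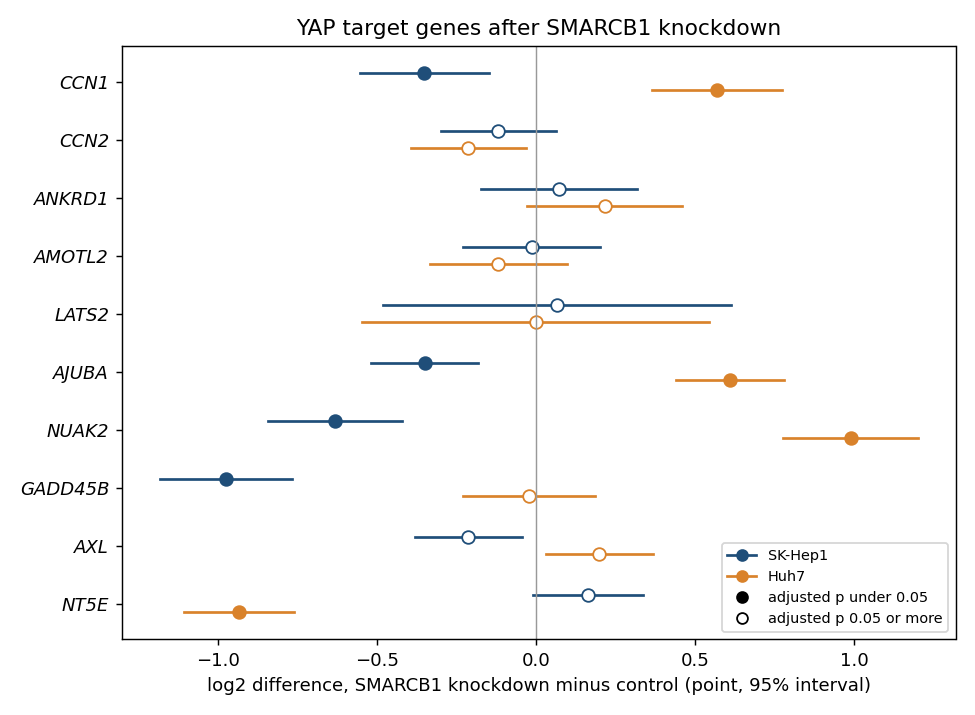
Log2 difference, SMARCB1 knockdown minus control, of each YAP target gene in SK-Hep1 (blue) and Huh7 (orange), with the 95% interval from limma. Filled points passed an adjusted p of 0.05; 4 genes did so in each line, and only LATS2 has intervals wider than 1 on the log2 scale.

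The response differed between the lines for 6 of the 10 genes, tested as the response in SK-Hep1 less that in Huh7, against 31.3% of all genes tested. It was -1.62 ± 0.134 for NUAK2 (limma adjusted p = 2.76e-05), -0.96 for AJUBA (0.00019), -0.95 for GADD45B (0.000615) and -0.92 for CCN1 (0.000656), all lower in SK-Hep1. AXL differed the same way by -0.41 (adjusted p = 0.0155), a call lost without either Huh7 control or without Huh7 knockdown replicate 3 (adjusted p = 0.0535 to 0.0567). NT5E differed the other way, by 1.097 ± 0.11 (adjusted p = 9.71e-05). The other five calls held with any 1 of the 8 arrays left out. For CCN2, ANKRD1, AMOTL2 and LATS2 no difference between the lines was detectable, with 95% intervals of -0.16 to 0.35, -0.49 to 0.20, -0.20 to 0.41 and -0.71 to 0.84. The 2 differences had opposite signs in 6 of the 10 genes, and in 50.1% of all genes tested.

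**Figure D3:**
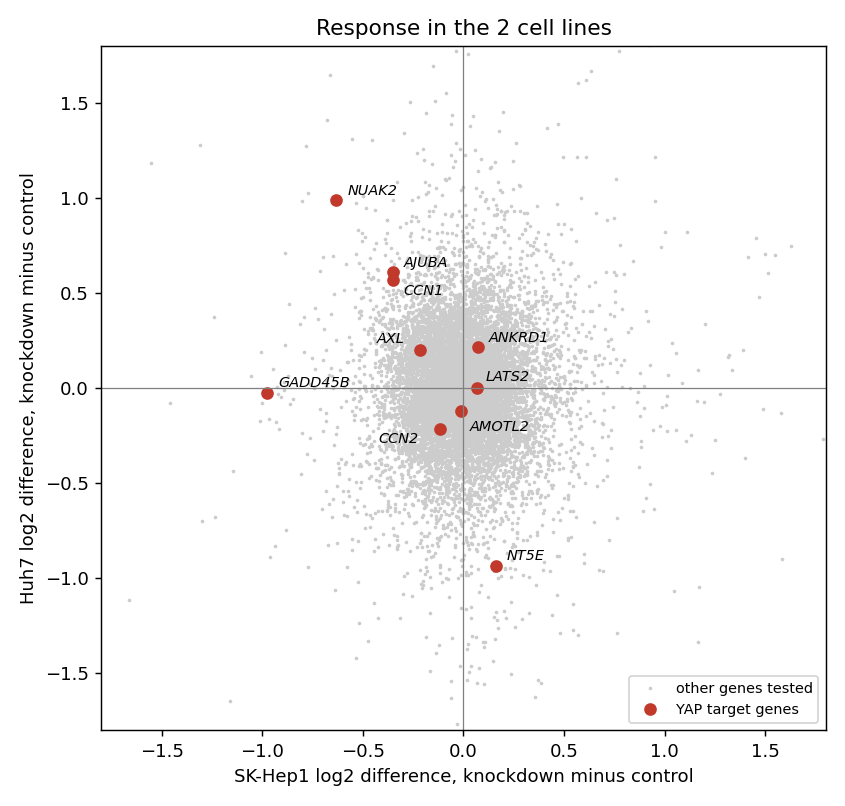
Log2 difference, knockdown minus control, in SK-Hep1 (horizontal axis) against Huh7 (vertical axis) for all genes tested (grey) and the 10 YAP target genes (red); 22 genes lie outside the axes. NUAK2, AJUBA, CCN1 and AXL lie at the upper left, lower in SK-Hep1 and higher in Huh7.

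Arrays that do not overlap are common in groups of 2 and say less than the test. Of the 10 genes, 5 lay wholly lower and 1 wholly higher in SK-Hep1, against 28.7% and 26.0% of all genes tested. In Huh7, 5 lay wholly higher and 2 wholly lower, against 37.4% and 37.2%.

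By the pattern over the 8 arrays, after the mean of the controls of the same line was taken off, the genes most like CCN1 outside the 10 were LRRC26 (Pearson r = 0.996), EZR, which encodes the membrane linker ezrin (0.995), and ANKZF1 (0.993). EZR was at -0.24 in SK-Hep1 (limma adjusted p = 0.0786) and rose by 0.37 in Huh7 (adjusted p = 0.00566). Most like CCN2 were LTN1, a ubiquitin ligase of stalled ribosomes (r = 0.974), the atypical protein kinase C gene PRKCI (0.974) and ZNF330 (0.974). These are descriptions over 8 arrays in 4 groups, chosen as the highest of all genes tested.

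Of the coactivators themselves, YAP1 was called in Huh7 and TAZ in both lines, in Huh7 only narrowly. YAP1 fell in Huh7, by 0.58 ± 0.0741 on the log2 scale (1.5-fold, limma adjusted p = 0.00023), and was at 0.011 in SK-Hep1 (95% interval -0.15 to 0.18). WWTR1, which encodes TAZ, rose in SK-Hep1 by 0.52 (adjusted p = 0.000991) and in Huh7 by 0.20 (adjusted p = 0.0399), the Huh7 call lost with each Huh7 array left out in turn (adjusted p = 0.103 to 0.20), with no filter on dim probes (0.0748) and with an intensity trend (0.0573). Of the DNA-binding partners, TEAD4 fell in SK-Hep1 by 0.38 (adjusted p = 0.00581) and rose in Huh7 by 0.22 (adjusted p = 0.0288), the Huh7 call lost with each Huh7 array left out (0.102 to 0.137) and with no filter on dim probes (0.0532). TEAD1 was at -0.31 in SK-Hep1 and 0.21 in Huh7 and passed in neither line, but passed in SK-Hep1 without knockdown replicate 11 (-0.43, adjusted p = 0.0184) and in Huh7 with array weights (adjusted p = 0.0485). TEAD2 was at 0.13 and rose by 0.23 in Huh7 (adjusted p = 0.0205), a call lost without either Huh7 control or without knockdown replicate 3 (0.079 to 0.15), and TEAD3 was at 0.18 and 0.096.

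With the VGLL cofactors and RUNX partners, the list of YAP, TAZ, TEAD and VGLL factors had 1 gene higher and 3 lower of 12 tested in SK-Hep1 (median -0.016) and 5 higher and 2 lower in Huh7 (median 0.17). Of all genes tested, 8.31% were higher and 8.54% lower in SK-Hep1, and 19.4% higher and 19.5% lower in Huh7. VGLL4, a competitor of YAP for TEAD, rose in Huh7 (0.44, limma adjusted p = 0.000642), as did VGLL3 (0.62, adjusted p = 0.000602), and RUNX2 fell there (-0.37, adjusted p = 0.00298). RUNX1 fell in SK-Hep1 (-0.36, adjusted p = 0.0119), a call lost without control replicate 1. VGLL2 also fell there (-0.39, adjusted p = 0.0199), a call lost without either control or knockdown replicate 12. VGLL2 and TEAD1 are dim, at means of 6.85 and 6.98 in SK-Hep1 knockdown cells, below the background limit of 7.003. Neither was kept by the stricter filter on dim probes. The number higher in Huh7 was 2 without either Huh7 control or knockdown replicate 3 and 3 without knockdown replicate 4, and in SK-Hep1 1 fell without control replicate 1 and 2 rose without knockdown replicate 11.

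Of 17 tested Hippo kinases and their adaptors, 1 rose and 0 fell in SK-Hep1, where 16.8% of all genes tested were called, and 4 rose and 1 fell in Huh7, where 38.9% were. TAOK2, a kinase upstream of STK3 and STK4, rose in both lines, by 0.34 in SK-Hep1 (limma adjusted p = 0.0188, lost without either control or knockdown replicate 11 at 0.0507 to 0.105) and by 0.40 in Huh7 (adjusted p = 0.0038). In Huh7 the LATS adaptor gene MOB1A rose by 0.41 (adjusted p = 0.00931, lost without control replicate 2 or knockdown replicate 3 at 0.0591 and 0.072) and the kinase gene MAP4K4 by 0.40 (adjusted p = 0.00389). STK38 fell there by 0.27 (adjusted p = 0.025), a call lost with each Huh7 array left out (0.0511 to 0.161). The median over the list was -0.0096 in SK-Hep1 and 0.083 in Huh7. The number higher in Huh7 was 2 without control replicate 2 or knockdown replicate 3, with any 1 Huh7 array left out none fell, and with any 1 SK-Hep1 array left out 2 did. In SK-Hep1, 1 kinase fell without knockdown replicate 11.

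Of 33 upstream regulators tested, AJUBA and AMOTL2 among them, 2 rose and 3 fell in SK-Hep1 (median -0.0041), and 9 rose and 4 fell in Huh7 (median -0.017). These counts are near the shares called among all genes tested, 16.8% in SK-Hep1 and 38.9% in Huh7. WWC1, which encodes the LATS activator KIBRA, rose in both lines, by 0.66 ± 0.0924 in SK-Hep1 (limma adjusted p = 0.00134) and 0.92 ± 0.0924 in Huh7 (adjusted p = 5.26e-05). FRMD6, an upstream activator of the pathway, fell by 0.46 in SK-Hep1 (adjusted p = 0.00474) and rose by 0.57 in Huh7 (adjusted p = 0.000493). The polarity gene CRB3 rose in Huh7 (0.79, adjusted p = 0.000103). The atypical cadherin gene DCHS1 rose in SK-Hep1 (0.53, adjusted p = 0.0213) and WWC3 fell there (-0.52, adjusted p = 0.0223), and each call was lost without either control or knockdown replicate 12 (adjusted p = 0.0562 to 0.148). In SK-Hep1 the number higher was 1 without either control or knockdown replicate 12 and 5 without knockdown replicate 11, and in Huh7 the number lower was 1 without control replicate 1 and 2 without knockdown replicate 4.

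A wider set of 48 tested genes reported as YAP or TEAD targets, none of them among the 10, had 13 higher and 7 lower in SK-Hep1 (median 0.015) and 19 higher and 5 lower in Huh7 (median 0.18). Among all genes tested, 8.31% were higher and 8.54% lower in SK-Hep1, and 19.4% higher and 19.5% lower in Huh7. The genes named below had the largest called differences of this set in SK-Hep1, in Huh7 or in both, and those differences were rises. Genes of the set that fell are not named, but some differences were nearly as large. The lowest difference in the set was -0.72 in SK-Hep1, larger in size than the rises of EDN1 and SLC2A1 there. In Huh7 the lowest was -0.64. EDN1, which encodes endothelin-1, rose by 0.64 in SK-Hep1 and 1.67 in Huh7 (limma adjusted p = 0.00207 and 1.51e-06), and the glucose transporter gene SLC2A1 by 0.61 and 1.62 (adjusted p = 0.000426 and 5.95e-07). OLR1, a receptor for oxidised LDL, rose by 0.92 and 1.804 (adjusted p = 0.0153 and 0.000138), the SK-Hep1 call lost without either SK-Hep1 control (0.0663 and 0.106). BCAR1, an adaptor of focal adhesions, rose by 0.76 and 0.46 (adjusted p = 0.000195 and 0.00117). FGF2 (1.02, adjusted p = 8.35e-05) and the keratin gene KRT34 (0.73, adjusted p = 0.00506) rose in SK-Hep1, and the focal adhesion gene TNS1 in Huh7 (1.198, adjusted p = 1.61e-05). The number higher in SK-Hep1 was 7 without control replicate 1 and 8 without control replicate 2, and the number lower was 2 and 1 without these and 3 with any 1 Huh7 array left out; in Huh7 the number lower was 3 without knockdown replicate 3.

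AP-1 factors, which share many binding regions with TEAD, fell in SK-Hep1: 6 of 9 fell and 0 rose, with a median of -0.51, where 8.54% of all genes tested fell and 8.31% rose. In Huh7 4 of 9 rose and 1 fell, with a median of 0.17, where 19.4% of all genes tested rose and 19.5% fell. ATF3 fell by 1.24 in SK-Hep1 (limma adjusted p = 0.000113) and rose by 0.37 in Huh7 (adjusted p = 0.0256), the Huh7 call lost with each Huh7 array left out (0.0611 to 0.136). FOS (-0.93, adjusted p = 8.53e-05) and FOSB (-0.74, adjusted p = 0.000512) fell in SK-Hep1. JUNB fell by 0.51 in SK-Hep1 and rose by 0.47 in Huh7 (adjusted p = 0.00209 and 0.00106), and JUN fell by 0.29 and rose by 0.35 (adjusted p = 0.0213 and 0.00339), the SK-Hep1 call for JUN lost without either control or knockdown replicate 12 (0.0519 to 0.106). JUND fell in both lines, by 0.54 and 0.49 (adjusted p = 0.01075 and 0.00671), lost in SK-Hep1 without control replicate 2 (0.0794) and in Huh7 without control replicate 1 (0.05007). With ATF3, JUNB and JUN, 3 of the 9 factors shared with CCN1, NUAK2 and AJUBA a fall in SK-Hep1 and a rise in Huh7, as did 2.16% of all genes tested. In Huh7, 2 rose without either control or knockdown replicate 4, none fell without control replicate 1, and 2 fell without either SK-Hep1 knockdown array.

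Targets of SRF and its MRTF cofactors, which read the same cytoskeletal cues as YAP, had 3 of 19 higher and 2 lower in SK-Hep1 (median 0.14) and 13 higher and 2 lower in Huh7 (median 0.33). The shares over all genes tested were 8.31% and 8.54% in SK-Hep1, and 19.4% and 19.5% in Huh7. FILIP1L showed the opposite pattern in the 2 lines at the largest size, falling by 1.55 in SK-Hep1 and rising by 1.19 in Huh7 (limma adjusted p = 9.63e-05 and 0.000142), and EGR1 fell by 0.43 and rose by 0.43 (adjusted p = 0.00474 and 0.00187). The smooth muscle gene TAGLN rose in both lines, by 0.83 and 2.12 (adjusted p = 0.000841 and 8.26e-07), as did the focal adhesion gene ZYX, by 0.42 and 0.31 (adjusted p = 0.00269 and 0.00439). ACTG2 and TPM1, of the contractile apparatus, rose in Huh7 by 1.45 and 0.77 (adjusted p = 5.8e-06 and 3.08e-05). In SK-Hep1, 5 rose without knockdown replicate 12, and in Huh7 none fell without either control and 1 without either knockdown array.

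**Figure D4:**
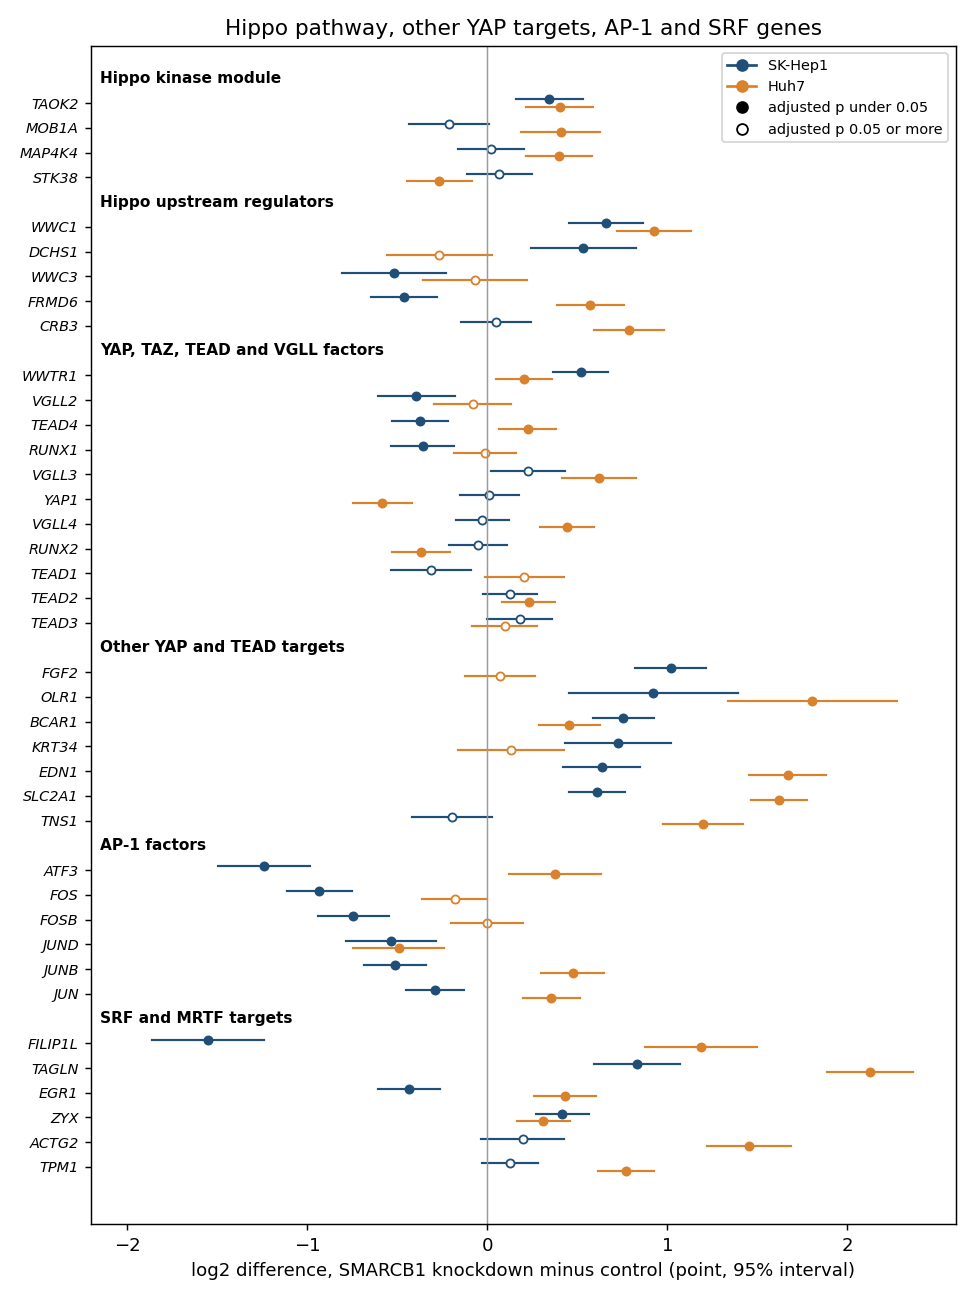
Log2 difference, SMARCB1 knockdown minus control, with 95% intervals, for the Hippo, YAP, AP-1 and SRF genes named in the text, grouped by list. SK-Hep1 is blue and Huh7 orange, and filled points passed an adjusted p of 0.05. FRMD6, TEAD4, ATF3, JUNB, JUN, FILIP1L and EGR1 have filled points on opposite sides of 0.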

How the data were processed

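Total RNA of 8 samples, extracted with TRIzol, was hybridised to an Illumina BeadChip per the labels' protocols. The values analysed are the log2 intensities that the authors deposited; GenomeStudio 2011.1 was used, per the submitters' processing notes, and what normalization or adjustment followed is not given in the sources used here. Non-normalized signals in 16 value columns were left out, since their running numbers match no label. Array medians were 6.93 and the lowest value was 5.90, so fold changes of dim genes may be understated. No slide or scan date was at hand, so no batch was tested.

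Probes were named through the platform annotation: 30110 of 47319 had 1 gene symbol, 8 several and 17201 none, and 30071 matched RefSeq by gene ID. A probe passed if its 8-array mean was over 7.003, the 95th percentile of 637 probes for gene families taken as silent here (chemosensory receptors, hair keratin partners and defensins); the brightest probe stood for a gene, giving 12411 genes. One limma model (version 3.58.1, under R 4.3.3) held a mean for each of the 4 groups, with 4 residual degrees of freedom and moderated variances; its two-sided tests used the Benjamini-Hochberg adjustment over all genes tested and a threshold of 0.05. The fit was tested on simulated data. The number of arrays limits the precision. The members and lists were chosen with earlier results of these data known. Named were the 10 genes, SMARCB1, the YAP, TAZ and TEAD genes, in each line the up to 4 largest called differences of each list, and the 3 genes most like each of CCN1 and CCN2 over the 8 arrays. A gene on 2 lists counts under both. Alternatives were 2 other filters, single probes, quantile normalization (over named probes) across all arrays and within lines, each line alone, array weights, an intensity trend, and each array left out.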

Additional observations from a re-analysis of the deposited data

Results flagged for a closer look

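Values are log2 responses to knockdown in SK-Hep1 less those in Huh7, for genes whose response differed between the lines by limma's test (adjusted p under 0.05). Among the YAP target genes these were NUAK2 (-1.62), AJUBA (-0.96), GADD45B (-0.95), CCN1 (-0.92), AXL (-0.41) and NT5E (1.097). The targeted gene SMARCB1 itself fell more in Huh7, by 0.48 (adjusted p = 0.035), a call lost in 7 of the 8 fits with 1 array left out, the exception being SK-Hep1 knockdown replicate 11 (adjusted p = 0.0588 to 0.119). Whether the depth of the knockdown has a part in the genes' differences was not tested.

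Of the coactivators and their partners, YAP1 (0.59), WWTR1 (0.31), RUNX2 (0.32), TEAD4 (-0.60), TEAD1 (-0.52), VGLL4 (-0.47), VGLL3 (-0.40) and RUNX1 (-0.35) differed. Of the Hippo kinases and upstream regulators, the values were 0.80 for DCHS1, 0.33 for STK38, -0.38 for MAP4K4, -0.62 for MOB1A, -0.74 for CRB3 and -1.03 for FRMD6. Among other YAP or TEAD targets they were 0.95 for FGF2, 0.59 for KRT34, -0.88 for OLR1, -1.01 for SLC2A1, -1.03 for EDN1 and -1.40 for TNS1. AP-1 factors differed by -1.62 for ATF3, -0.98 for JUNB, -0.75 for FOS, -0.74 for FOSB and -0.64 for JUN. SRF targets differed by -2.74 for FILIP1L, -1.30 for TAGLN, -1.26 for ACTG2, -0.86 for EGR1 and -0.64 for TPM1. ACTG2 passed the filter only through the Huh7 knockdown arrays, where it was high. The calls for WWTR1, RUNX1, RUNX2, VGLL3, MAP4K4, STK38, OLR1 and KRT34 were lost in 5 to 7 of the 8 fits with 1 array left out, and that for TEAD1 in 3. With no filter on dim probes the calls for STK38, WWTR1, RUNX1, VGLL3 and RUNX2 were lost as well (adjusted p = 0.0577 to 0.0764).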

How the results depend on the processing

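In Huh7, the number of YAP target genes lower was 1 and became 2 with every kept probe tested on its own, with either quantile normalization, with each line fitted alone, with array weights and with an intensity trend, where CCN2 was added. The number higher was 3 and became 5 with each line fitted alone and with array weights, where ANKRD1 and AXL were added. The difference of LATS2 in Huh7 was -0.0018 and turned to 0.0030 and 0.0034 under the quantile normalizations. The call for CCN1, SK-Hep1 knockdown against control, was lost with each line fitted alone (limma adjusted p = 0.0723). In SK-Hep1, the calls for TAOK2 (0.0615) and JUN (0.0735) were lost with each line fitted alone, and those for DCHS1 (0.0545), VGLL2 (0.0666) and JUN (0.0665) with array weights. With each line fitted alone, with array weights and with an intensity trend, the differences named here were unchanged and only their tests moved. The cause of the shifts under quantile normalization was not tested. With 1 array left out, the YAP target genes lower ran from 2 to 5 in SK-Hep1 and from 1 to 2 in Huh7, and those lower in SK-Hep1 and higher in Huh7, 3 with all arrays, from 1 (without SK-Hep1 control replicate 1) to 4. Over the other lists together, without the 10 genes, those higher in SK-Hep1 ran from 11 to 24 and those lower from 11 to 21 (20 each with all arrays), and those lower in Huh7 from 7 to 19 (15 with all arrays). The SMARCB1 difference between the lines ran from 0.30 to 0.67. Differences that changed sign were in no case called: ANKRD1 (-0.078 to 0.22), AMOTL2 (-0.13 to 0.099) and YAP1 (-0.073 to 0.094) in SK-Hep1, LATS2 (-0.43 to 0.42) and GADD45B (-0.087 to 0.040) in Huh7, and between the lines CCN2 (-0.00090 to 0.19), ANKRD1 (-0.29 to 0.0078), AMOTL2 (-0.0069 to 0.22) and LATS2 (-0.36 to 0.49). No paired analysis was possible because knockdown and control arrays of a line share no replicate number.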

Other observations

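The promoter windows held TEAD motifs in genes with and without a call. CCN2 (3 copies) and ANKRD1 (2 copies) were called in neither line on their brightest probes. LATS2 and 1 of the 2 promoters of each of AMOTL2 and AXL held 1 copy, and these genes were not called on their brightest probes either. The second AXL probe did pass in both lines when probes were tested singly (limma adjusted p = 0.0422 and 0.0411). NUAK2 (2 copies) and AJUBA (1 copy, in 1 of its 2 promoters) were called in both lines. GADD45B and NT5E, called in 1 line each, had 0 copies. With 9 genes in the promoter table this is a description, with no test.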
